A study of Mus musculus with 6 samples.

Results

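The interferon regulatory factors are transcription factors that bind interferon-response elements in DNA and control interferon genes and the genes that interferons induce. The 8 members described here were Irf1, Irf2, Irf3, Irf4, Irf5, Irf7, Irf8 and Irf9, of 20207 genes with a protein coding entry in the table. They were chosen by gene symbol. The table held 12 entries for them, and each gene was represented by the RefSeq transcript with the highest mean value.

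RNA was sequenced from primary wildtype mouse embryonic fibroblasts (MEFs), untreated or given TNFα at 20 ng/ml for 1.5, 6 or 24 hr. TNFα is a cytokine that activates the transcription factor NF-κB. All of the cells carried the background C57BL/6x 129, came from embryos at day 13.5 and had been passaged 4 times. ChIP-seq for H3K4me3, a histone mark of active promoters, was made from untreated cells alone, with 1 ChIP library and 1 input library. There was 1 RNA-seq library per time, so no comparison has a replicate check and no p-value is given. All 3 times were compared with the same untreated library.

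The members divide by role. Irf3 and Irf7 lie latent in the cytoplasm until the kinases Tbk1 and Ikbke phosphorylate them downstream of sensors of viral nucleic acid, and they then switch on type I interferon genes. Irf9 is the DNA-binding part of ISGF3, the complex with STAT proteins that forms after interferon binds its receptor. Irf1 is an activator whose own gene is a known target of NF-κB and of STAT proteins, and Irf2 binds the same sites and can oppose it. Irf5 acts downstream of Toll-like receptors in myeloid and B cells, while Irf4 and Irf8 are best known in lymphocytes, macrophages and dendritic cells.

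Levels are in RPKM, a number of reads divided by the length of the exons and by the depth of the library, so levels of different genes can be compared per length. The value of a library is the mean of its columns R1 and R2, brought to one RPKM scale. What R1 and R2 hold was not given in the sources used here, so they were not used as replicates, and a range over them is not known to cover the spread between cultures. The correlation of R1 with R2 across coding genes was between 0.989 and 0.993, and the 95th percentile of their absolute log2 difference was between 0.339 and 0.406, depending on the library. A gene was counted as higher or lower when it averaged more than 1 RPKM across all 4 libraries and its fold against untreated was at least 2. The deposited values are not level between libraries: over the 6542 coding genes that passed this filter, the median log2 ratio to untreated was 0.46, -0.74 and 0.11 at the 3 times in turn. Each log2 ratio of a member is therefore also given after scaling the libraries by the median of ratios, which removes such a common shift. The table holds no read counts, so the number of reads behind a value is unknown.

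The cells were checked against their label. The 10 fibroblast markers summed to an RPKM of 1062 in the untreated library, with Col1a1 at 514, and to between 506 and 1050 after TNFα. The 6 endothelial markers summed to at most 0.0645 and the 6 epithelial markers to at most 0.612. Leukocyte markers were present. The 14 of them in the table summed to 93.0, 259, 53.6 and 130 at 0, 1.5, 6 and 24 hr, and Cd3e was listed at 0 in every library. Among the myeloid ones, Lyz2 stood at 26.4, 171, 31.5 and 84.0, Laptm5 at 25.2, 32.7, 6.18 and 13.9, Csf1r at 3.44, 3.35, 1.05 and 1.45, and Emr1 at 0.307, 0.865, 0.160 and 0.319. In bulk samples like these, fewer cells of a type and less RNA per cell cannot be told apart.

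Before treatment the family was led by Irf3, and at 1.5 hr by Irf1. In untreated MEFs Irf3 had an RPKM of 8.94, followed by Irf9 at 2.11, Irf7 at 1.69, Irf1 at 1.33, Irf2 at 1.04, Irf5 at 0.771 and Irf8 at 0.372, with Irf4 listed at 0. The steps from Irf9 to Irf7, Irf7 to Irf1 and Irf1 to Irf2 were each smaller than the 95th percentile of the difference between the columns, so neighbours among these 4 were not told apart. At 1.5 hr Irf1 led with 15.1 and Irf3 came second with 6.64, and Irf5, Irf9, Irf2 and Irf7 followed with no step between neighbours above that percentile. Irf3 and Irf1 were the highest members at 6 and 24 hr as well, and at 6 hr the step between them was within the same limit, as was that from Irf1 to Irf7 at 24 hr. Irf8 and Irf4 held the bottom ranks in all 4 libraries.

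**Figure D1:**
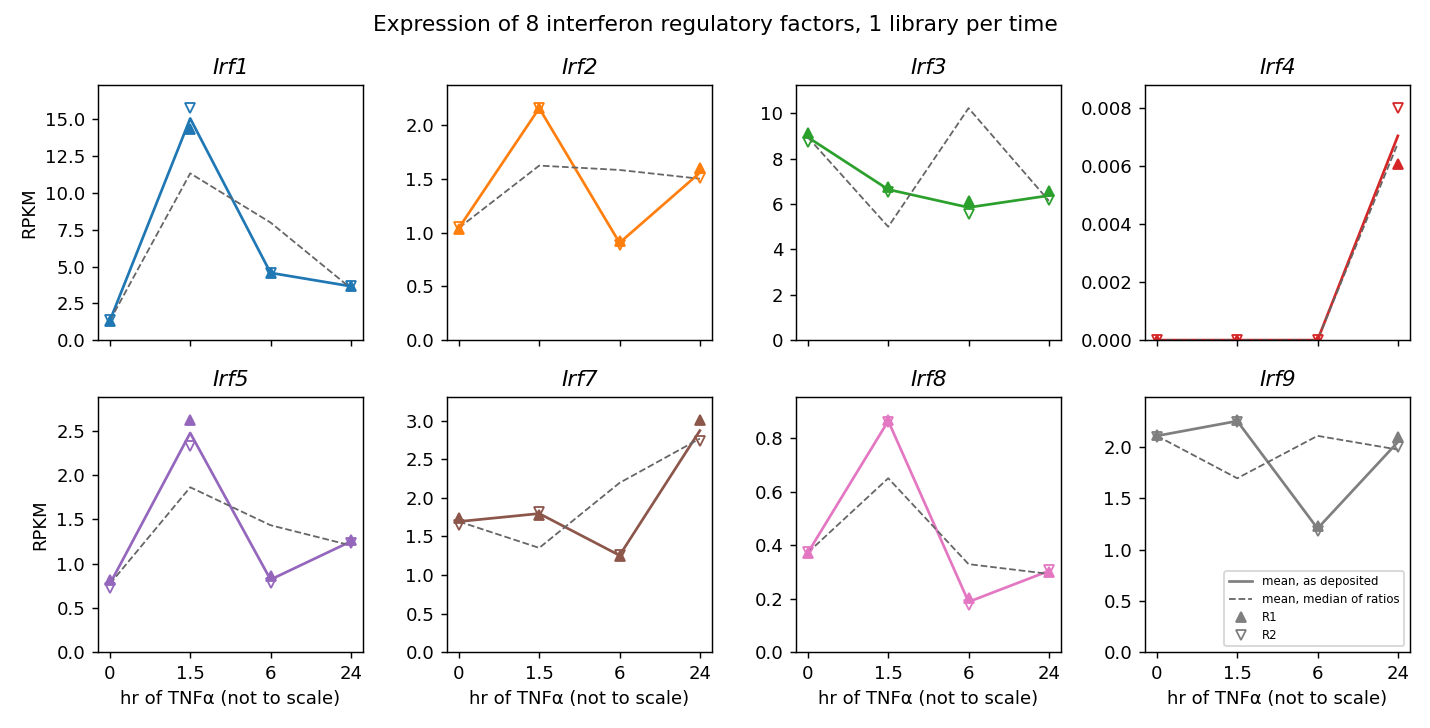
Level of each member in RPKM (vertical axis, linear, a separate range per panel) against hr of TNFα (horizontal axis, not to scale), with 1 library per time. Filled and open triangles are the columns R1 and R2, the solid line is their mean as deposited and the dashed line the mean after scaling by the median of ratios. Irf1 went from 1.33 to 15.1 at 1.5 hr, and the solid and dashed lines take different directions between at least 1 pair of neighbouring libraries for Irf2, Irf3, Irf5, Irf7, Irf8 and Irf9.

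Of the 8 members, 6 passed the filter on expression (32.4% of all coding genes did), and Irf4 and Irf8 did not. As deposited, 3 members were at least 2-fold higher at 1 or more times, Irf1, Irf2 and Irf5, and none was at least 2-fold lower. Among all coding genes that passed, 31.2% were higher and 38.4% were lower at 1 or more times. As deposited, Irf5 passed the filter only through its 1.5 hr library, with an RPKM of 0.771 untreated, 0.820 at 6 hr and 1.25 at 24 hr. After scaling by the median of ratios these levels were 0.771, 1.43 and 1.21, and it passed without that library. With the median of ratios 2 members were higher, Irf1 and Irf5, and none was lower, against 21.4% higher and 19.6% lower of the 6589 coding genes that passed with that scaling. By time, 3 members were higher at 1.5 hr (29.9% of coding genes were), 1 at 6 hr (1.74%) and 1 at 24 hr (16.8%), the last 2 counts being Irf1. With the median of ratios the counts were 2 (16.6%), 1 (8.12%) and 1 (15.2%). The lack of lower members stood beside 7.8%, 31.6% and 12.6% of coding genes that were lower at 1.5, 6 and 24 hr as deposited, and 16.6%, 2.4% and 14.3% with the median of ratios. Among the 6 members, Irf1, Irf2, Irf5 and Irf9 had their highest level at 1.5 hr as deposited (59.9% of coding genes did), Irf3 without treatment (31.6%) and Irf7 at 24 hr (6.11%), and none at 6 hr (2.38%). With the median of ratios Irf1, Irf2 and Irf5 were highest at 1.5 hr (27.4%), Irf3 and Irf9 at 6 hr (21.8%) and Irf7 at 24 hr (22.1%), none untreated (28.7%), and Irf9 at 6 hr and untreated differed by less than its columns. Above the untreated level at all 3 times were Irf1 and Irf5 as deposited (10.4%), and Irf1, Irf2 and Irf5 with the median of ratios (35.9%).

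Irf1 was the member that differed most from its untreated level. It had an RPKM of 1.33 untreated, 15.1 at 1.5 hr, 4.57 at 6 hr and 3.66 at 24 hr, so all 3 treated libraries were above the untreated one and the first was the highest. The folds were 11.3, 3.44 and 2.75. On the log2 scale these are 3.50, 1.78 and 1.46 as deposited, and 3.09, 2.59 and 1.41 with the median of ratios. The columns gave 3.45 and 3.55 at 1.5 hr, 1.79 and 1.77 at 6 hr, and 1.47 and 1.45 at 24 hr. Irf1 was at least 2-fold higher at all 3 times, as were 1.02% of coding genes as deposited and 5.1% with the median of ratios. Ranked by log2 ratio among the 6542 coding genes, it stood 27th, 45th and 441st at 1.5, 6 and 24 hr. The other 2 entries of the gene, NM_001159393 and NM_001159396, had log2 ratios of 3.41 and 3.35 at 1.5 hr, 1.69 and 1.74 at 6 hr, and 1.29 and 1.33 at 24 hr.

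Irf2, which binds the same DNA sites as Irf1, differed less. In order of time its RPKM was 1.04, 2.16, 0.906 and 1.56. The log2 ratios were 1.05, -0.21 and 0.58 as deposited and 0.64, 0.60 and 0.52 with the median of ratios, so the direction at 6 hr turns with the scaling. The 1.5 hr value passed 2-fold only as deposited (29.9% of coding genes were higher then), and centring within bins of GC content gave log2 ratios of 0.03, 0.30 and -0.05 at the 3 times, so the direction at 24 hr also turns. Irf2 had the lowest GC content of the 8 members, 46.8%. A ratio within a library does not depend on a scaling by a common factor per library, though GC centring would move it. The RPKM of Irf1 divided by that of Irf2 was 1.27, 6.98, 5.04 and 2.35 in order of time. From R1 or R2 alone it was between 6.65 and 7.30 at 1.5 hr, and in no library did their range reach that of another. Irf1 was above Irf2 in all 4 libraries, by most at 1.5 hr. In the untreated library the step between them was smaller than the 95th percentile of the difference between the columns.

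Irf3 and Irf7, the latent activators of type I interferon genes, were not 2-fold higher or lower at any time. Irf3 had an RPKM of 8.94, 6.64, 5.85 and 6.37 at 0, 1.5, 6 and 24 hr. Its log2 ratios were -0.43, -0.61 and -0.49 as deposited and -0.84, 0.19 and -0.54 with the median of ratios, so it was below the untreated level at 1.5 and 24 hr with both scalings and at 6 hr only as deposited. With GC centring they were -0.35, 0.26 and -0.13. Irf7, which interferon itself induces, had 1.69, 1.80, 1.25 and 2.87, with the 24 hr library the highest. The log2 ratio of Irf7 at 24 hr was 0.76 as deposited, with columns at 0.79 and 0.73, and 0.71 with the median of ratios. At 1.5 hr it was 0.09 and -0.32 on these scales and at 6 hr -0.43 and 0.37, so its direction at both times turns with the scaling. With GC centring the log2 ratios of Irf7 were -0.01, 0.49 and 0.95 at the 3 times. Within the libraries, Irf7 divided by Irf3 was 0.189, 0.270, 0.214 and 0.450, which places the highest ratio at 24 hr.

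Irf9, the ISGF3 subunit, was close to its untreated level at 24 hr with both scalings. In order of time the RPKM was 2.11, 2.25, 1.21 and 2.05. The 6 hr library was the only one well below the rest, at a log2 ratio of -0.81 as deposited, and there the ratio was 0.00 with the median of ratios. At 1.5 hr it was 0.10 as deposited and -0.31 with the median of ratios, and at 24 hr -0.04 and -0.09. With GC centring the log2 ratios of Irf9 were -0.49, -0.04 and -0.25 at 1.5, 6 and 24 hr. The 3 entries of the gene gave between -0.81 and -0.78 at 6 hr. Irf7 divided by Irf9 was 0.802 untreated, 0.797 at 1.5 hr, 1.04 at 6 hr and 1.40 at 24 hr.

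Among the members best known in immune cells, Irf5 was higher at 1.5 hr, Irf8 was low and Irf4 was near or at 0. Irf5 had an RPKM of 0.771, 2.48, 0.820 and 1.25, with 1 library, that of 1.5 hr, standing above the rest. Its log2 ratios were 1.68, 0.09 and 0.70 as deposited and 1.27, 0.89 and 0.64 with the median of ratios, above the untreated level in all cases and past 2-fold only at 1.5 hr. Centring within bins of GC content gave 1.59, 1.01 and 0.89. Irf8 had 0.372, 0.864, 0.188 and 0.303, an average of 0.432. Its log2 ratios were 1.21, -0.98 and -0.29 as deposited and 0.80, -0.18 and -0.35 with the median of ratios, so only the 1.5 hr library was above the untreated one. Irf4 was listed at 0 in the first 3 libraries, as 21.8% to 26.4% of coding genes were, and at 0.00704 at 24 hr. No fold is given for it. Irf5 and Irf8 had their highest value at 1.5 hr, as did 59.9% of coding genes that passed as deposited and 27.4% with the median of ratios. The leukocyte markers also summed to their highest value in that library, 259, of which Lyz2 made up 171. The median log2 ratio of the 7 markers that passed was 0.44 as deposited and 0.03 with the median of ratios at 1.5 hr. Over all coding genes that passed it was 0.46 and 0.04. At 6 hr the marker median was -1.58 and -0.78 on these scales, against -0.74 and 0.06 over all coding genes. At 24 hr it was -0.85 and -0.91, against 0.11 and 0.06. The part of leukocytes in the result was not tested. Of the 14 markers, 2 were listed at 0 in every library. As deposited, 8 were above the untreated level and 4 below it at 1.5 hr, 2 and 10 at 6 hr, and 6 and 6 at 24 hr. With the median of ratios these counts were 7 and 5, 4 and 8, and 6 and 6. At 1.5 and 24 hr the log2 ratios were 3.04 and 2.63 for Cd14, 2.70 and 1.67 for Lyz2, 1.11 and 0.44 for Tyrobp, 1.49 and 0.06 for Emr1, 0.44 and -0.96 for Cd68, 0.38 and -0.85 for Laptm5, -0.04 and -1.25 for Csf1r and -0.73 and -1.53 for Fcer1g. Irf5 divided by Irf8 was 2.07, 2.87, 4.36 and 4.12 at 0, 1.5, 6 and 24 hr.

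**Figure D2:**
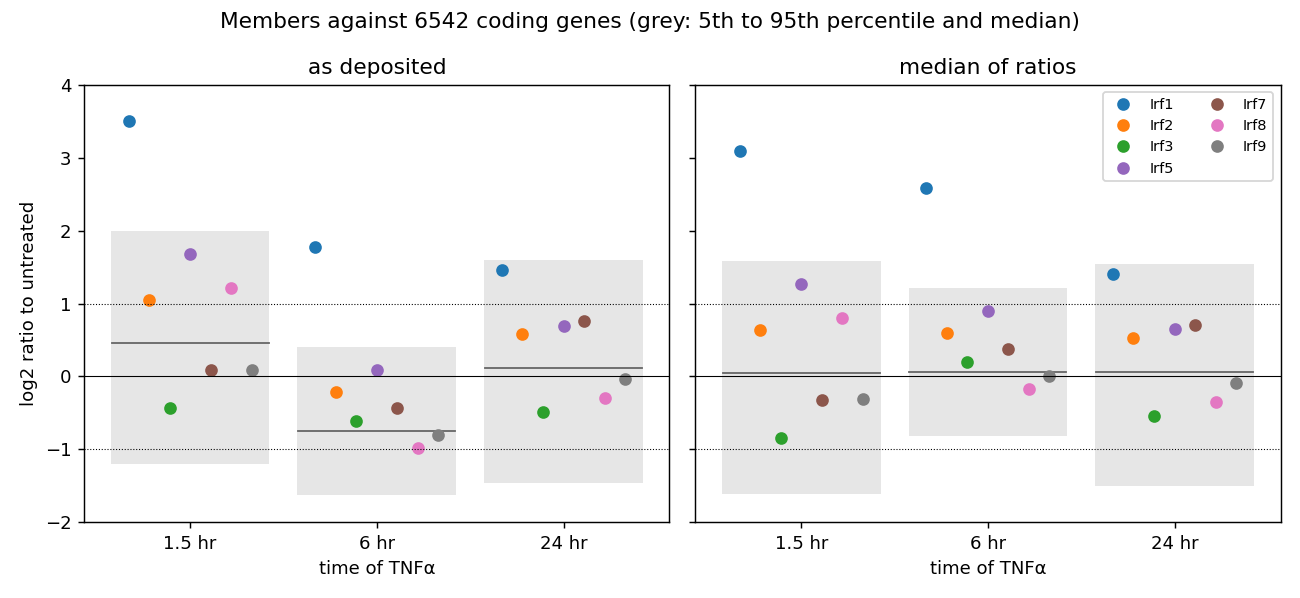
Log2 ratio to untreated (vertical axis) of 7 members at each time of TNFα (horizontal axis), as deposited on the left and with the median of ratios on the right. Grey bars span the 5th to 95th percentile of coding genes with an average RPKM above 1, the grey line is their median, dotted lines mark 2-fold, and Irf4 has no ratio. Irf1 lies above the bars at 1.5 and 6 hr on both sides, at 3.50 and 1.78 as deposited, and inside them at 24 hr.

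The make-up of the family within a library does not change with a scaling by a common factor per library. GC centring moves members by unlike amounts and would change the shares. At 1.5 hr it took the log2 ratio of Irf1 from 3.50 to 3.07, of Irf2 from 1.05 to 0.03 and of Irf3 from -0.43 to -0.35. Irf3 made up 55.0% of the summed RPKM of the 8 members in untreated MEFs, 21.3% at 1.5 hr, 39.5% at 6 hr and 35.3% at 24 hr. Irf1 made up 8.17%, 48.2%, 30.9% and 20.2%, so its share was above the untreated one in all 3 treated libraries. The columns put the share of Irf1 at 46.7% and 49.7% at 1.5 hr. Irf7 went from 10.4% untreated to 5.75% at 1.5 hr and 15.9% at 24 hr. A share also falls when another member rises. The RPKM of Irf7 was 1.69 untreated and 1.80 at 1.5 hr, when that of Irf1 went from 1.33 to 15.1. Irf2 kept a share between 6.12% and 8.62% in all libraries. The summed level itself was 16.3 untreated, 31.3 at 1.5 hr, 14.8 at 6 hr and 18.1 at 24 hr as deposited. Relative to untreated that is 1.92, 0.910 and 1.11, against 1.45, 1.59 and 1.07 with the median of ratios, so at 6 hr the family was below the untreated sum only as deposited.

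**Figure D3:**
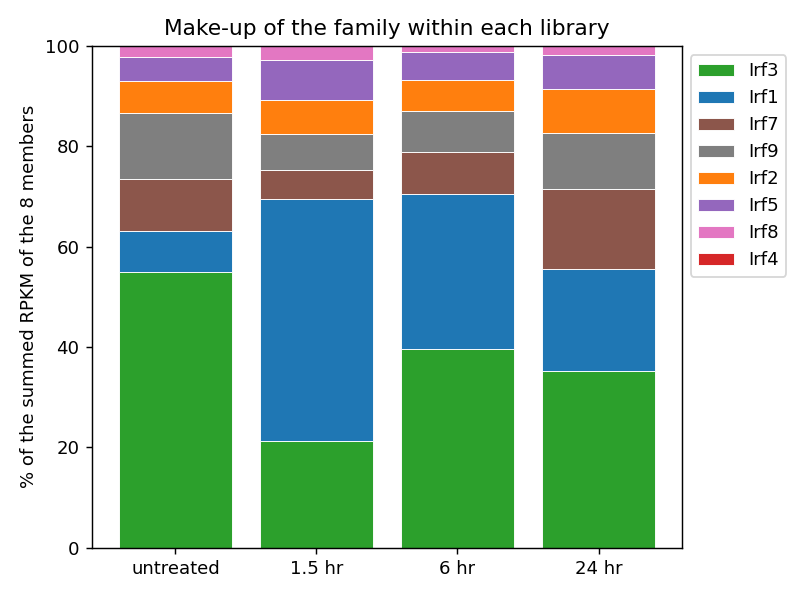
Share of each member in the summed RPKM of the 8 members (vertical axis, %) in each of the 4 libraries (horizontal axis, 1 library per bar). Irf1 takes 48.2% of the bar at 1.5 hr and 8.17% of the untreated bar, and Irf4 is too low to be seen.

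Before treatment, 4 of the 8 members carried H3K4me3 at their starts, near the share of all 19653 coding genes with a peak within 1 kb, 52.5%. A deposited peak covered the annotated mm9 start of Irf1, Irf2, Irf3 and Irf7, and no peak lay within 1 kb of the starts of Irf4, Irf5, Irf8 and Irf9. The peak at Irf1 (chr11:53582541-53586527) was 3987 bp long with 1381 tags, and its fold enrichment of 24.7 was below the median of 45.5 over all 11157 peaks. At Irf2 (chr8:47823392-47828060) the peak was 4669 bp long with 2629 tags and 31.9-fold enriched. The Irf3 peak (chr7:52250856-52255720) held 1910 tags at 58.5-fold. It also covered the start of Bcl2l12, which lies 69 bp away on the opposite strand, so the peak cannot be given to one of the genes. At Irf7 (chr7:148450925-148453083) the peak was the smallest of these, 2159 bp with 425 tags, at 44.3-fold. The median over all peaks was 3187 bp and 1049 tags, and all summits at members lay downstream of the start, by between 136 and 584 bp.

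Of the members without a peak, Irf9 stood apart by its expression. A peak within 1 kb was found for 89.5% of all coding genes whose untreated level exceeded an RPKM of 1, and Irf9 (chr14:56222408-56228867), at 2.11, had none. The nearest peak lay 9992 bp from its start and covered the starts of Psme2 and Rnf31. The other 2 starts annotated for coding transcripts of Irf9 had none within 5 kb either. For genes with an untreated RPKM from 0.1 to 1, the class of Irf5 and Irf8, 72.6% had a peak, and for genes listed at 0, the class of Irf4, 1.57% had one. The nearest peaks to Irf4 (chr13:30841095-30858796), Irf5 (chr6:29476625-29491869) and Irf8 (chr8:123260258-123280594) were 87845, 18084 and 65750 bp away. The list holds no peak below 20-fold enrichment, so a weaker one would not be on it. Irf1, which had a peak before treatment, was thus marked while its RPKM was 1.33, and H3K4me3 after TNFα was not measured.

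**Figure D4:**
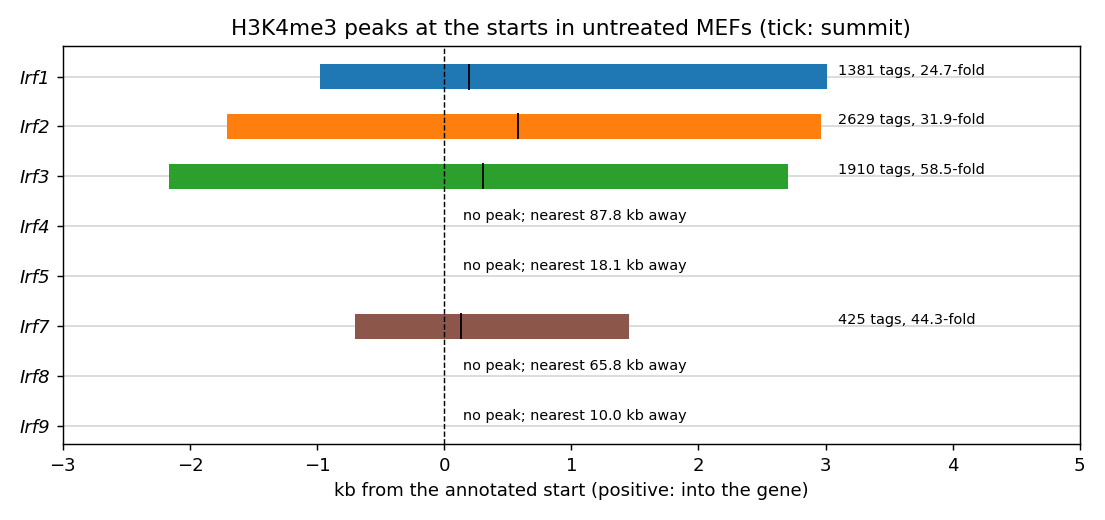
Extent of the H3K4me3 peak (coloured bar) around the annotated start of each member in untreated MEFs, in kb from the start (horizontal axis, positive into the gene), with the summit as a black tick, the tags and the fold enrichment. Peaks cover 4 of the 8 starts, and the other starts have their nearest peak between 10.0 and 87.8 kb away.

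The 250 bases upstream of the annotated starts were searched on both strands for elements bound by the factors that act on this family: the κB consensus of NF-κB, the GAS element TTCNNNGAA of STAT proteins and the ISRE core GAAANNGAAA of the interferon regulatory factors and ISGF3. The κB consensus was found in 7.96% of 19653 coding promoters of that length, the GAS element in 6.69% and the ISRE core in 3.21%. Of the 8 members, 2 held a κB match (Irf1, Irf2), 3 a GAS match (Irf1, Irf2, Irf8) and 1 an ISRE match (Irf2), and the promoters of Irf3, Irf4, Irf5, Irf7 and Irf9 held none of the 3. The 3 promoters with matches are shown because they hold all of them, 5′ to 3′ on the strand of the gene in mm9, with the matches in capitals.
Irf1, chr11:53583266-53583515, + strand: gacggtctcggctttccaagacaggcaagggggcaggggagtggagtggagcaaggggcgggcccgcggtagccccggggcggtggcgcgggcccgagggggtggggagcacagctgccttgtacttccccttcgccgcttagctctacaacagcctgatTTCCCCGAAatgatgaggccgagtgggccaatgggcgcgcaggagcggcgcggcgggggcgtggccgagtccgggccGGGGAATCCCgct
Irf2, chr8:47824849-47825098, + strand: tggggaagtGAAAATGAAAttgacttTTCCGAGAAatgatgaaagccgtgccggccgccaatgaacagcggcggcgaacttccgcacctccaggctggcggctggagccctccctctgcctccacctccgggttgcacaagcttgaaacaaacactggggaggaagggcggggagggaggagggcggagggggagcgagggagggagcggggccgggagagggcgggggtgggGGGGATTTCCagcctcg
Irf8, chr8:123260008-123260257, + strand: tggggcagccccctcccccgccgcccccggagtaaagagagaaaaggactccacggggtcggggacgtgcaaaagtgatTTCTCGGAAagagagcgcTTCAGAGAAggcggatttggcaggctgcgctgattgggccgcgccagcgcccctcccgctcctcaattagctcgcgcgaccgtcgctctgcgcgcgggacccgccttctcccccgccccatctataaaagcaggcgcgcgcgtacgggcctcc

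In Irf1 the capitals mark, in order, a GAS match from -90 to -82 and a κB match from -13 to -4, counted back from the start. In Irf2 they mark an ISRE match from -241 to -232, a GAS match from -224 to -216 and a κB match from -17 to -8. Both capitalised stretches in Irf8, from -171 to -163 and from -153 to -145, are GAS matches, and no match overlapped another. The κB matches of Irf1 and Irf2 lay at nearly the same distance from the start, and the RPKM of the genes at 1.5 hr were 11.3 and 2.07 times the untreated ones as deposited. Irf5, which was 3.21-fold higher at that time, held no κB match in this window. The search covered a single annotated start per gene and did not count near matches. The part of κB matches in the levels was not tested. The promoters with a match, of Irf1, Irf2 and Irf8, held 25, 17 and 29 CpG dinucleotides, and those without one, of Irf3, Irf4, Irf5, Irf7 and Irf9, held 16, 11, 25, 1 and 7, against a median of 10 over all promoters.

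Neighbouring and overlapping genes touch some of the values. The spans of Irf1, Irf3, Irf5, Irf7, Irf8 and Irf9 each overlap another coding gene in the annotation. The libraries kept strand, but whether the counting used it was not given in the sources used here. Of the 36-base words of the member transcripts, 8.02% of those of Irf5 were shared with Tnpo3, which overlaps it on the opposite strand, 3.20% of those of Irf9 with Rnf31 and other genes, 2.03% of those of Irf1 and 0.403% of those of Irf7. Irf2, Irf3, Irf4 and Irf8 shared none with another coding gene, and no member shared any with another member. Tnpo3, a nuclear import receptor, had log2 ratios of 1.03, -0.29 and 1.26 at 1.5, 6 and 24 hr as deposited, against 1.68, 0.09 and 0.70 for Irf5. Bcl2l12, which shares the peak of Irf3, had -0.39, -0.42 and -0.70 as deposited, against -0.43, -0.61 and -0.49 for Irf3. With the median of ratios Bcl2l12 had -0.80, 0.38 and -0.76, and thus the signs of Irf3 at each time with both scalings. Rnf31, a subunit of the linear ubiquitin ligase, had -0.63, -0.42 and -1.21, against 0.10, -0.81 and -0.04 for Irf9.

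The genes around the family were described in 6 lists. Of 99 list genes in the table, 53 passed the filter as deposited, 28 of them with a level 2-fold or more above the untreated one at 1 or more times, and with the median of ratios 55 passed and 24 were higher. Over all coding genes that passed, 31.2% and 21.4% were higher. The filter takes the average of all 4 libraries, so a gene can pass through the libraries in which it is high. Log2 ratios of list genes are as deposited unless said otherwise. The median of ratios lowers each by 0.41 at 1.5 hr and by 0.05 at 24 hr and raises it by 0.81 at 6 hr, so a value just below 0 at 6 hr turns its sign. Interferon genes themselves were almost silent. Ifnb1, Ifna4, Ifna2, Ifng and Ifne were listed at 0 in every library. Of the 13 genes for interferons and their receptors, 5 passed the filter, all of them receptor chains, and 4 of these were higher at 1 or more times with both scalings and none lower. Ifngr2, a chain of the interferon-γ receptor, went from an RPKM of 2.15 to 11.4 at 1.5 hr, a log2 ratio of 2.40, and stood at 2.93 at 6 hr and 8.30 at 24 hr. At 1.5 hr the log2 ratio was 2.19 for its partner Ifngr1, 2.09 for Il10rb, a chain of the interferon-λ and IL-10 receptors, and 1.69 for Ifnar1, a chain of the type I receptor. The medians of the 5 were 2.09, -0.10 and 1.50, beside 0.46, -0.74 and 0.11 over all coding genes.

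Among the kinases and adaptors that activate Irf3, Irf5 and Irf7, 9 of 16 passed the filter with both scalings. As deposited 5 were higher at 1 or more times and 2 lower, against 31.2% and 38.4% of all coding genes that passed. With the median of ratios 2 were higher and none lower, against 21.4% and 19.6%. Tank, an adaptor that binds Tbk1, had log2 ratios of 3.29, 2.11 and 3.61 from an untreated RPKM of 0.205. Ddx58, the RNA sensor RIG-I, had 1.51, -0.13 and 1.13, and at 1.5 hr the ratio was 1.31 for Traf3 and 1.18 for Myd88, adaptors of the virus-sensor and Toll-like receptor pathways. The last 2 passed 2-fold only as deposited.

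Of 11 signalling partners of the interferon receptors, 7 passed the filter as deposited, 3 of them higher at 1 or more times and 1 lower. With the median of ratios 8 passed, 1 was higher and none lower. Over all coding genes that passed, 31.2% were higher and 38.4% lower as deposited, and 21.4% and 19.6% with the median of ratios. The kinase Jak1 and the phosphatase Ptpn11 had 1.15 and 1.19 at 1.5 hr as deposited and 0.74 and 0.78 with the median of ratios. Socs3, a feedback inhibitor of cytokine signalling, had -1.45 at 6 hr as deposited and -0.65 with the median of ratios.

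Of 9 cofactors of the family in the table, 6 passed, 1 was higher and 3 were lower, against 1 and 2 with the median of ratios. Over all coding genes that passed, 38.4% were lower at 1 or more times as deposited and 19.6% with the median of ratios. Ets1, a partner of Irf family proteins on DNA, had a log2 ratio of 1.89 at 1.5 hr. The coactivator genes Crebbp and Ep300, which bind activated Irf3, had -1.43 and -1.29 at 6 hr as deposited, and with the median of ratios they passed 2-fold at 1.5 hr instead, at -1.01 and -1.04. Nfatc1, of a family whose proteins bind DNA with Irf4, had -1.58 at 6 hr as deposited and -0.77 with the median of ratios.

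The targets were read in lists of their own. Of 28 target genes of ISGF3, Irf3 or Irf7, 13 passed the filter as deposited, 7 of them higher at 1 or more times and 1 lower. With the median of ratios 14 passed, 7 were higher and none lower. The shares over all coding genes that passed were 31.2% higher and 38.4% lower as deposited, and 21.4% and 19.6% with the median of ratios. Ifit1, an antiviral RNA-binding protein, had an RPKM of 1.93, 4.55, 26.7 and 6.95, with its highest value at 6 hr, when the median of all coding genes was below untreated. Isg15, a ubiquitin-like protein, had 3.78, 12.8, 3.30 and 17.9 and was highest at 24 hr, the time of the highest Irf7. The log2 ratio of Oasl2, an antiviral protein, was 2.01 at 24 hr, and that of Parp9, a partner of Dtx3l in interferon signalling, 2.64 at 1.5 hr. Of 22 target genes of Irf1, 13 passed, 8 were higher and 1 was lower, and with the median of ratios 9 were higher and none lower. Cxcl10, a chemokine for T cells, had an RPKM of 0.0893 untreated and 8.90 at 1.5 hr, a log2 ratio of 6.64, and 4.09 and 4.04 at the later times. Ccl5, another chemokine, had 0.555, 18.6, 26.4 and 36.6. As deposited its highest log2 ratio was 6.04 at 24 hr, and with the median of ratios 6.38 at 6 hr. Gbp2, a guanylate-binding protein, had log2 ratios of 4.81, 3.28 and 4.16, and Vcam1, a leukocyte adhesion molecule, 4.42, 2.26 and 3.48. The median of the 13 Irf1 targets was 1.91, 0.78 and 2.18 at 1.5, 6 and 24 hr. Several of these genes are also known targets of NF-κB.

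**Figure D5:**
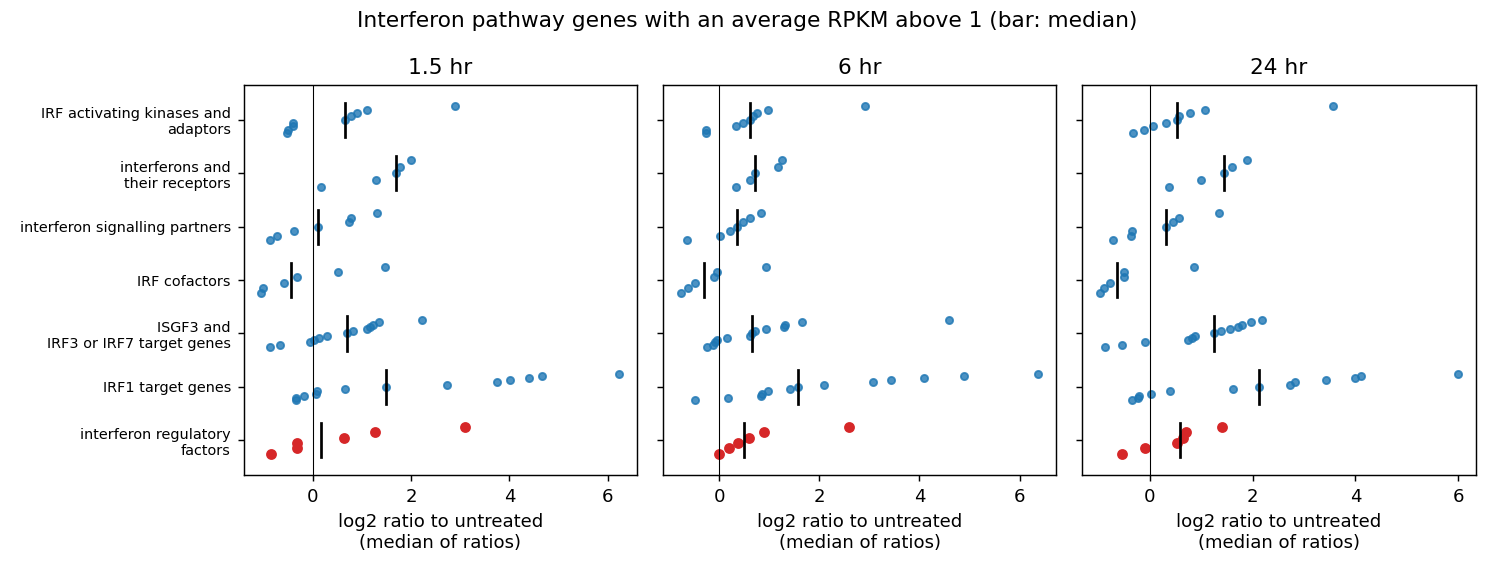
Log2 ratio to untreated with the median of ratios (horizontal axis) of each gene of the 6 lists (blue) and of the members (red) with an average RPKM above 1, at 1.5, 6 and 24 hr, with the median of each row as a black bar. Each point is 1 gene in 1 library, and the Irf1 targets have their medians at 1.49, 1.58 and 2.13.

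The patterns closest to each member were sought among the 6542 coding genes, by the Euclidean distance of the 3 log2 ratios after scaling by the median of ratios, over 4 libraries. Nearest to Irf1 were Tnfaip2 at a distance of 0.37, a TNF-induced gene, and Icam1 at 0.57, an adhesion molecule, and next Pfdn4 at 0.94, a prefoldin subunit. Icam1 had ratios of 3.36, 2.78 and 1.88 on this scale, against 3.09, 2.59 and 1.41 for Irf1. Nearest to Irf5 were Fam136a at 0.13, Ctss at 0.15 and Maff at 0.16. Ctss encodes a lysosomal protease abundant in macrophages. Nearest to Irf2 were Samhd1, Atp6v1g1 and Usp8, to Irf3 2900053A13Rik, Ndor1 and Stom, to Irf7 1700029I01Rik, Gm13251 and Tmem176a, and to Irf9 1110051M20Rik, Trim26 and Rag1ap1, all within 0.18. No gene lay as close to Irf1 as these did to the other members. Irf1 ranked 27th and 45th of 6542 at 1.5 and 6 hr, where few genes lie, so its larger distances are no separate result. The distances up to 0.18 were smaller than the 95th percentile of the column difference in any library (0.339 to 0.406). Which genes come out nearest to those members is thus not settled.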

How the data were processed

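RNA-seq libraries were made from poly-A RNA by a method that keeps strand. TopHat was used by the authors to place reads on mm9, and a script of theirs gave RPKM values per RefSeq transcript, in 2 columns (R1 and R2) per library. Columns were assigned to times through the study's list of sequencing depths. For the 24 hr library a single label field describes ChIP, and the library was used as RNA-seq on the strength of its other labels. ChIP-seq reads were mapped with Bowtie, and MACS peaks were deposited with their tag count, a score derived from log10 of the p, the fold enrichment over background (a ratio) and the FDR in percent.

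The deposited RPKM were divided by 85.6, their median ratio to the RPKM listed in the supplement of the study (83.4 to 89.9 by library). No pseudocount was added. The members and lists were chosen with earlier results of these data known. All 8 members were named, as were the 4 genes of each list with the largest absolute log2 ratio and the 3 genes nearest to each member that passed the filter; 1 gene that this rule names is not reported here. The overlapping and neighbouring genes, the myeloid markers and the interferon genes at 0 were named after their values were seen. Starts, spans and promoters came from the mm9 genome and its GENCODE annotation. Alternatives were other scalings, filters, pseudocounts, fold thresholds, single columns, summed entries, left-out libraries and, added after seeing the data, centring within 20 bins of GC content. The scalings and calls were tested on simulated data made from the untreated values. Entries at the untreated levels of Irf1, Irf2, Irf4, Irf5, Irf7 and Irf8 were left out, so calls at such levels were not tested. A limit on false calls was set for the median of ratios alone. Python 3.11.15, numpy 2.4.6, pandas 2.3.3 and matplotlib 3.10.9 were used.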

Additional observations from a re-analysis of the deposited data

Results flagged for a closer look

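Irf8 was above its untreated level at 1.5 hr, with a log2 ratio of 1.21, and below it at 6 hr, with -0.98, and at 24 hr, with -0.29. It was picked out because the directions at these times were opposite as deposited and with the median of ratios (0.80, -0.18 and -0.35). There was 1 library per time, the difference between the times was not tested, and the average RPKM of Irf8 was 0.432, under the minimum of 1. Centred within bins of GC content, the log2 ratios were 1.12, -0.06 and -0.11.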

How the results depend on the processing

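Irf1 was at least 2-fold higher at 1 or more times under every alternative run. Against 3 members higher as reported, 5 were higher with no filter on RPKM (Irf8 and, from a listed 0, Irf4 added), and 1, Irf1, with an average RPKM above 3, with a pseudocount of 1 RPKM or without the 1.5 hr library. The median of ratios, the sum, the trimmed mean of log ratios, a pseudocount of 0.1 RPKM and centring by GC content each left 2, Irf1 and Irf5. No member was lower as reported, and 2 were at a threshold of 1.5-fold, Irf3 and Irf9. The 28 list genes that were higher became 52 with no filter, 9 with an average RPKM above 3, 17 with a pseudocount of 1 and 18 without the 1.5 hr library. Of the 4 starts with a peak, 2 remained at a fold enrichment of at least 40, those of Irf3 and Irf7. No called value changed its direction. Of the members' log2 ratios under the other scalings, the pseudocounts and GC centring, 105 moved by more than the columns R1 and R2 differ from their mean and 21 did not. The cause was not tested. No paired analysis was possible because there was 1 library per time. Single libraries, an unknown number of reads behind each value and the shift between libraries limit what the ratios show. The direction of Irf2, Irf3, Irf7 and Irf9 at 6 hr and of Irf7 and Irf9 at 1.5 hr depends on the scaling. So does the direction of Irf9 at 24 hr, with -0.04 as deposited and 0.01 when scaled to the sum. With GC centring, that of Irf2 at 24 hr turned as well, to -0.05.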
